A study of Drosophila melanogaster with 27 samples.

Results

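Antimicrobial peptides and Turandot proteins are secreted by flies in response to microbes, injury and stress, and 10 of their genes are described here: TotA, TotC, TotM, Drs, Drsl5, DptA, AttA, AttC, Mtk and CecA1. They were taken by FlyBase symbol from a table of 17807 genes, and Drsl5 was fixed as FBgn0035434. Of the 10 members, 8 had enough counts to be tested. AttA, with 86 counts over all libraries, and CecA1, with 35, did not, and are given as levels.

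The samples were lysates of pupal heads, 200 per genotype and replicate as the protocol reads, although the labels name whole brain as the tissue. The mutant is the stock CG6422 with genotype Ythdf#0/#0, a mutant of Ythdf, which encodes a reader of the RNA mark m6A, and the wild type is w1118. Each lysate gave an RNA pull-down with 2 antibodies to the RNA-binding protein Fmr1, a control pull-down with mouse IgG, and an input taken before both. There were 4 mutant replicates (numbered 1, 2, 3 and 7) and 5 wild-type replicates (1, 2, 3, 5 and 7) of each kind, 27 libraries in all. Every pull-down carried the same Protein G beads, and the inputs had no antibody or beads. The mutation and the background of the stock cannot be told apart, since 1 mutant stock was set against 1 wild-type stock, and the labels give neither sex nor hours of pupal age.

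Signalling through the Toll, Imd and JAK/STAT pathways is known to drive these genes in the fly. The Toll pathway, set off by fungi and many Gram-positive bacteria, is the main route to Drs (Drosomycin, an antifungal peptide) and to the Bomanins and Daisho peptides. The Imd pathway, set off by bacterial peptidoglycan, is the main route to DptA (Diptericin A), AttA and AttC (Attacins A and C) and CecA1 (Cecropin A1), all aimed chiefly at Gram-negative bacteria. Mtk (Metchnikowin), an antifungal and antibacterial peptide, answers to both. Turandot genes are stress and immune genes induced through JAK/STAT signalling, whose ligands are the Unpaired cytokines, with input from stress kinases. Fat body and hemocytes make much of these products, and head tissue holds both beside neurons, glia, muscle and photoreceptors.

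Gene counts ran from 9207492 to 15459370 in mutant inputs and 5623123 to 13240187 in wild-type inputs. They ran from 10726339 to 54195136 in mutant Fmr1 libraries and 14843961 to 29699547 in wild-type Fmr1 libraries. The IgG libraries were far shallower, at 274951 to 3052311 in the mutant and 196933 to 5879253 in the wild type. In them 1 count stands for 0.286 to 3.26 CPM in the mutant and 0.162 to 4.8 CPM in the wild type, so low levels there are coarse (CPM are counts scaled to library size). Ythdf mRNA had 29.4 to 36.3 CPM in mutant inputs, against 55.5 to 69.1 CPM in wild-type inputs (log2 fold change −0.90 ± 0.32, edgeR adjusted p = 0.107). The labelled tissue was checked against marker lists. All 9 neuron markers had counts in the inputs, and so did all 7 muscle, 5 photoreceptor, 13 fat body and 10 hemocyte markers. The summed muscle markers had 25600 to 36100 CPM in mutant inputs and 33700 to 44900 CPM in wild-type inputs, so RNA of head tissue outside the brain was present. In such bulk samples fewer cells of a type and less RNA per cell cannot be told apart.

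Levels below are CPM after TMM scaling, listed in the order of the replicate numbers just given. Genes were called where edgeR's quasi-likelihood test gave a Benjamini-Hochberg adjusted p under 0.05 over the 11469 genes tested. Log2 fold changes are given with their SE.

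AttC was the only member called between genotypes in the inputs, and it was lower in the mutant. The other 7 tested members had positive fold changes that did not pass. One called member of 8 stands against 5.68% of all genes called in this comparison (652 of 11469), 3.33% higher and 2.35% lower. The members' median log2 fold change was 0.80, against 0.04 over all genes. At an unadjusted p under 0.05 by edgeR there were 4 members, beside 2164 of all 11469 genes. DESeq2 called 1 member, beside 525 of all genes as higher and 411 as lower.

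**Figure D1:**
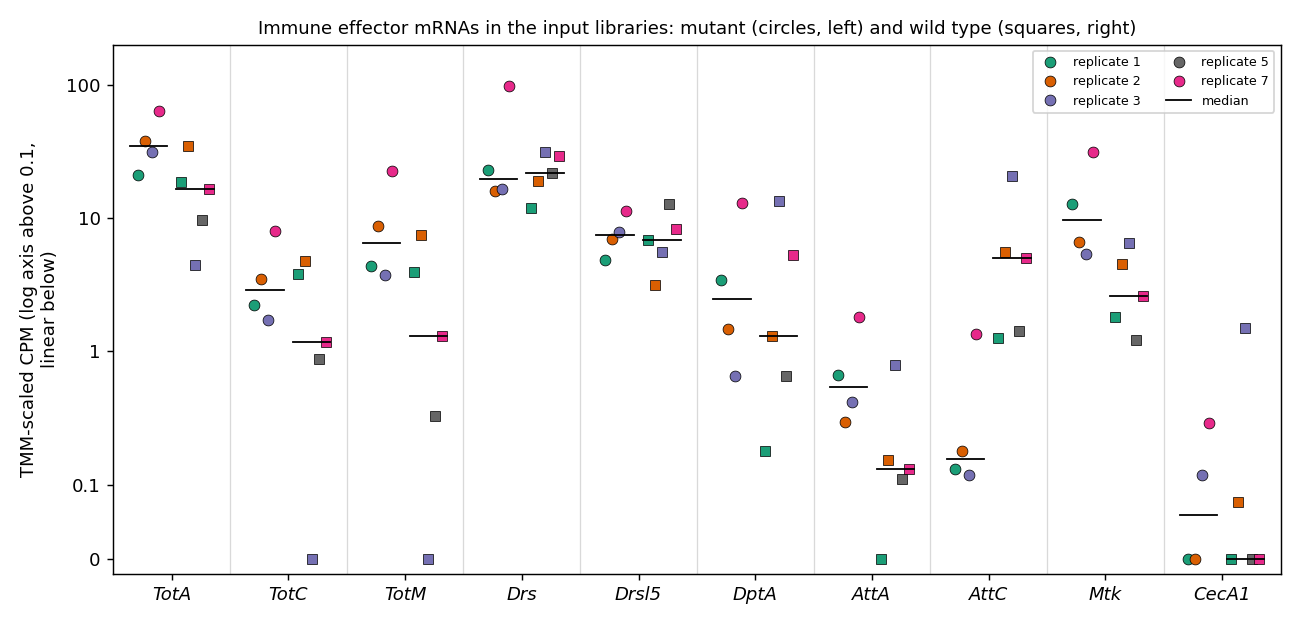
TMM-scaled CPM of the 10 members in each input library, mutant as circles on the left and wild type as squares on the right of each gene; colours mark replicate numbers and bars the medians, on an axis that is logarithmic above 0.1 CPM and linear below. Mutant replicate 7 is the top mutant point for all 8 tested members, and AttC is the member whose mutant points lie lowest against the wild type.

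The 3 Turandot genes had higher mean levels in mutant inputs, and none passed. TotA, the stress-induced humoral factor first described in this family, lies on the plus strand at 3R:20871036-20871700 in BDGP6.54. It had 21.1, 37.7, 31.3 and 63.5 CPM in mutant inputs, against 18.5, 34.9, 4.48, 9.67 and 16.5 CPM in wild-type inputs. The groups overlapped, because wild-type replicate 2 stood above 2 of the mutant libraries. On the log2 scale the difference was 1.18 ± 0.52 (edgeR adjusted p = 0.208).

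TotC lies near TotA on the same strand, at 3R:20872988-20873580, and its sequence is related, so reads may have been split between them. Its levels were 2.25, 3.51, 1.73 and 7.97 CPM in mutant inputs, against 3.78, 4.77, 0, 0.879 and 1.18 CPM in wild-type inputs. TotM, a Turandot gene on another chromosome (2L:5329857-5330464), had 4.36, 8.73, 3.76 and 22.4 CPM in mutant inputs, against 3.96, 7.46, 0, 0.330 and 1.31 CPM in wild-type inputs. Wild-type replicate 3 held no count of TotC or TotM and was also the lowest for TotA, while wild-type replicate 2 was the highest for all 3. The groups overlapped for both genes. The log2 fold changes were 0.86 ± 0.86 for TotC (edgeR adjusted p = 0.645) and 1.88 ± 0.85 for TotM (0.225). Without mutant input replicate 7 they were 0.17 (0.964) for TotC and 1.01 (0.645) for TotM, and without wild-type input replicate 2 they were 1.48 (0.468) and 2.96 (0.0796). Over all alternatives the adjusted p ran from 0.376 to 0.986 for TotC and 0.0796 to 0.821 for TotM.

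Among the antifungal peptides, Drs at 3L:3369556-3369942 was the member with the highest level per kilobase of exon, at 98.6 CPM per kb in mutant inputs and 58.6 CPM per kb in wild-type inputs. It had 22.9, 15.9, 16.5 and 97.4 CPM in mutant inputs, against 11.9, 19.1, 31.5, 21.9 and 29.1 CPM in wild-type inputs. A single mutant library, replicate 7, stood above the wild-type range. The other 3 lay inside it. The log2 fold change of 0.74 ± 0.55 did not pass (edgeR adjusted p = 0.508), and without mutant replicate 7 it was −0.33 (adjusted p = 0.704, over all alternatives 0.123 to 0.786).

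Drsl5, a Drosomycin-like gene at 3L:3316781-3317144, had 4.89, 6.95, 7.87 and 11.2 CPM in mutant inputs and 6.84, 3.15, 5.54, 12.9 and 8.27 CPM in wild-type inputs. The ranges nearly coincided, and the log2 fold change was 0.08 ± 0.38 (edgeR adjusted p = 0.945). Mtk, on arm 2R, had 12.7, 6.59, 5.37 and 31.5 CPM in mutant inputs, against 1.80, 4.53, 6.51, 1.21 and 2.63 CPM in wild-type inputs. Here 3 mutant libraries stood above every wild-type library, and mutant replicate 3 lay under wild-type replicate 3. Its log2 fold change of 2.02 ± 0.75 did not pass (edgeR adjusted p = 0.127). In replicates 1, 5 and 7 alone Mtk passed at 3.56 (adjusted p = 0.000332), and in replicates 2 and 3 alone it was 0.10 (0.916). Without mutant input replicate 7 it was 1.21 (0.485), and over all alternatives its adjusted p ran from 0.000332 to 0.916. The gene span of Mtk lies within that of Stacl on the same strand in the annotation. Whether their exons overlap was not tested, so reads of both may be mixed there.

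Of the Imd-type peptides, AttC passed and DptA did not. DptA, on arm 2R, had 3.43, 1.49, 0.656 and 13.0 CPM in mutant inputs, against 0.180, 1.31, 13.5, 0.659 and 5.25 CPM in wild-type inputs. It was the most variable tested member with counts in every input, with a highest over lowest ratio of 19.8 in mutant and 74.8 in wild-type inputs. DptA came to 0.08 ± 1.06 (edgeR adjusted p = 0.984).

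AttC, also on arm 2R, had 0.132, 0.178, 0.119 and 1.34 CPM in mutant inputs, against 1.26, 5.61, 20.7, 1.43 and 4.99 CPM in wild-type inputs. These levels rest on 2, 3, 2 and 14 counts in mutant inputs, against 7, 73, 235, 13 and 38 counts in wild-type inputs. The groups met only at mutant replicate 7 and wild-type replicate 1. The log2 fold change was −4.15 ± 1.02 (edgeR adjusted p = 0.0133), a level 17.8-fold lower in the mutant. The call was lost without mutant input replicate 1 (−3.85, 0.0554), 2 (−3.92, 0.0549) or 3 (−3.86, 0.0543) or wild-type input replicate 3 (−3.10, 0.0514), and held without all libraries of wild-type replicate 3 (−3.08, 0.0322). The call was also lost in replicates 1, 5 and 7 alone (−1.90, 0.362), and in replicates 2 and 3 alone AttC was at −6.47 (0.00421). Without mutant input replicate 7 it was −5.67 (0.0062), and the adjusted p ran from 0.000699 to 0.362 over all alternatives. AttC (2R:13393705-13394667) overlaps CG4744 (2R:13394615-13399368) on the opposite strand in the annotation, only at the ends of the gene spans. The strand used in counting is not given in the sources used here.

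The libraries with the most DptA can be set side by side. Mutant replicate 7 and wild-type replicate 3 had almost the same DptA level, at 13.0 and 13.5 CPM. AttC stood at 1.34 CPM in mutant replicate 7 and 20.7 CPM in wild-type replicate 3. Mtk stood at 31.5 CPM in mutant replicate 7, against 6.51 CPM in wild-type replicate 3, and Drs at 97.4 against 31.5 CPM. With no replicates behind either library, this pair is a description only.

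AttA and CecA1 were near the limit of detection. AttA had 0.660, 0.297, 0.417 and 1.82 CPM in mutant inputs, against 0, 0.154, 0.791, 0.110 and 0.131 CPM in wild-type inputs. Its sequence is close to that of AttB, so counts may have been split between them. CecA1, at 3R:30210874-30211273 and near its close relative CecA2, had 0, 0, 0.119 and 0.288 CPM in mutant inputs. It had 0, 0.0769, 1.49, 0 and 0 CPM in wild-type inputs, where replicate 3 held 17 of the 18 counts. With a count minimum of 1 both could be fitted, at 1.59 ± 0.80 for AttA (edgeR adjusted p = 0.297) and −1.94 ± 1.18 for CecA1 (0.408). AttA and AttC thus had values of opposite sign, and only that of AttC passed.

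Some members varied together from lysate to lysate. Over the 9 inputs, taken as deviations from the mean of their genotype on the log2(CPM + 0.1) scale, TotA, TotC and TotM followed each other. Pearson's r was 0.929 for TotA and TotC, 0.963 for TotA and TotM and 0.970 for TotC and TotM, with Spearman's rho of 0.917, 0.933 and 0.933. Exact permutation within genotypes gave p = 0.00104, 0.000694 and 0.000347 for r, each 0.00972 after adjustment over the 28 pairs of members, and 0.00174, 0.00208 and 0.000347 for rho (adjusted 0.0194, 0.0194 and 0.00972). Here 0.000347 is the smallest p that the 2880 permutations can give. Without the 2 inputs farthest from the median of the first gene, r was 0.802, 0.884 and 0.942.

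Among the peptides the pairs of DptA and AttC, AttC and Mtk, and Drs and DptA passed by Pearson's r, and no pair passed by rank. Pearson's r was 0.901 for DptA and AttC (exact permutation p = 0.00417, adjusted 0.0194) and 0.893 for AttC and Mtk (0.00347, adjusted 0.0194). It was 0.816 for Drs and DptA (0.00208, adjusted 0.0146) and 0.821 for DptA and Mtk (0.0139, adjusted 0.0556), which did not pass. Spearman's rho was 0.900, 0.817, 0.833 and 0.800 for these pairs (exact permutation p = 0.00764, 0.0132, 0.00903 and 0.0250, adjusted 0.0506, 0.0616, 0.0506 and 0.1). Without the 2 farthest inputs r was 0.740, 0.71, 0.776 and 0.575. Drs reached 0.772 with AttC and 0.761 with Mtk, and neither passed (adjusted exact permutation p = 0.0741 and 0.102). 

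No relation between a Turandot gene and a peptide gene passed in these inputs. The largest size of r between TotA, TotC or TotM and any peptide was that of TotC and DptA, at −0.429 (exact permutation p = 0.347, adjusted 0.884). These values rest on the 2 farthest inputs: without them r was 0.0611 for TotC and DptA, 0.608 for TotA and AttC (−0.0743 with them) and 0.532 for TotM and Mtk (0.0803 with them). No relation of Drsl5 passed, its highest r being 0.345 with Drs (exact permutation p = 0.305, adjusted 0.854). All these points share library depth and scaling. The relation within single groups was not computed, since they hold 4 and 5 inputs.

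**Figure D2:**
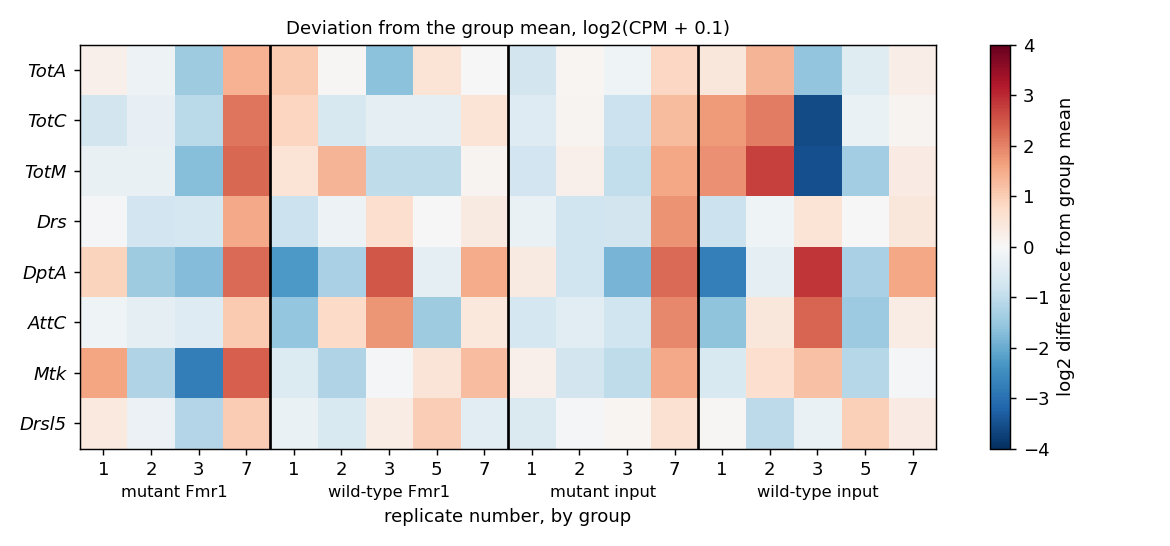
Deviation of each tested member from the mean of its group on the log2(CPM + 0.1) scale, in mutant and wild-type Fmr1 libraries and in mutant and wild-type inputs; columns are replicates and colours run from −4 to 4. Mutant replicate 7 is raised for all 8 members in both kinds, and in wild-type input replicate 3 DptA and AttC are raised where TotC and TotM are lowest.

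Mutant replicate 7 was the highest of its group for 8 of 8 tested members in the input and in the Fmr1 library, and for 7 of 8 in the IgG library. Its summed heat shock genes were also the highest of the mutant inputs, at 4580 CPM, where the other 3 had 2250 to 2500 CPM. Its summed Bomanins and Daisho genes had 745 CPM, against 161 to 274 CPM in the other mutant inputs. In the wild type the tops were spread: input replicate 2 was the highest for 3 members, all Turandot genes, replicate 3 for 4 members and replicate 5 for 1. The input and the Fmr1 library with the highest level bore the same number for 8 of 8 members in the mutant and 5 of 8 in the wild type.

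Genes of related function were described from lists. Of 13 tested Bomanins and Daisho genes, short immune peptides released under Toll signalling, 6 were higher and 0 lower in mutant inputs (median log2 fold change 1.29). BomS1 had 27.1, 20.7, 15.6 and 96.5 CPM in mutant inputs, against 3.06, 5.53, 5.98, 5.93 and 9.06 CPM in wild-type inputs. All 4 mutant libraries stood above every wild-type library. The log2 fold change was 2.74 ± 0.57 (edgeR adjusted p = 0.00348), with BomS2 at 2.24 ± 0.53 (0.00989) and BomBc1 at 2.30 ± 0.59 (0.0175). Without mutant replicate 7 the list had 3 higher and 1 lower, where BomS1 was at 1.80 (adjusted p = 0.0115) and BomS6 was the lower gene at −1.33 (0.0348), and without wild-type replicate 3 it had 2 higher and 0 lower.

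Of 9 tested JAK/STAT genes 2 were higher in mutant inputs, both Unpaired cytokines, with upd2 at 2.39 ± 0.60 (edgeR adjusted p = 0.0136) and upd3 at 2.63 ± 0.68 (0.0177). Without mutant replicate 7 none of the 9 passed, and without wild-type replicate 3 the count was 2. Of 9 other antimicrobial peptide genes Drsl2 was higher (1.99 ± 0.60, edgeR adjusted p = 0.0456) and Drsl3 lower (−2.64 ± 0.78, 0.0465), and without mutant replicate 7 none passed. TotB and TotX, the other 2 Turandot genes tested, had negative values that did not pass (median −0.87), unlike TotA, TotC and TotM. By edgeR 0 of 18 Toll pathway genes passed (1 at an unadjusted p under 0.05, 0 by DESeq2), and 0 of 17 Imd pathway genes (1 at an unadjusted p under 0.05, 1 by DESeq2).

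Of 13 fat body markers 0 were lower and 4 higher in mutant inputs, namely Yp1 (2.64 ± 0.64, edgeR adjusted p = 0.0130), Yp3 (1.68 ± 0.43, 0.0180) and Yp2 (2.24 ± 0.61, 0.0275), which encode yolk proteins, and the larval serum protein gene Lsp2 (2.04 ± 0.55, 0.0283). Lsp1beta had −0.42 ± 0.47 and Lsp1gamma −0.42 ± 0.35, and neither passed (edgeR adjusted p = 0.690 and 0.561). Without mutant replicate 7 the count was 2, where Yp2 (1.56, 0.0745) and Yp3 (1.06, 0.0573) lost their calls, and without wild-type replicate 3 it was 2 as well, where Yp2 (2.30, 0.0635) and Lsp2 (1.98, 0.0726) lost theirs. Their summed level was 1410 to 1670 CPM in mutant inputs, against 1040 to 1220 CPM in wild-type inputs, and none of the 13 was at 0. Of 10 hemocyte markers PPO2 alone was higher (1.01 ± 0.30, edgeR adjusted p = 0.0397). By edgeR 0 of 9 neuron markers passed (7 at an unadjusted p under 0.05, 2 lower by DESeq2), and 0 of 5 photoreceptor markers (1 at an unadjusted p under 0.05, 1 lower by DESeq2). Their summed levels did not overlap between genotypes, and the share of all genes without overlap is not given here. Glia marker sums did overlap, at 3310 to 3730 CPM in mutant and 3610 to 4520 CPM in wild-type inputs. So did muscle marker sums, at 25600 to 36100 CPM in mutant and 33700 to 44900 CPM in wild-type inputs. Neuron markers summed to 4570 to 5370 CPM in mutant inputs, against 5800 to 8250 CPM in wild-type inputs, and photoreceptor markers to 10700 to 11700 CPM in mutant inputs, against 12300 to 15000 CPM in wild-type inputs. The part of these cells in the levels of the members was not tested.

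**Figure D3:**
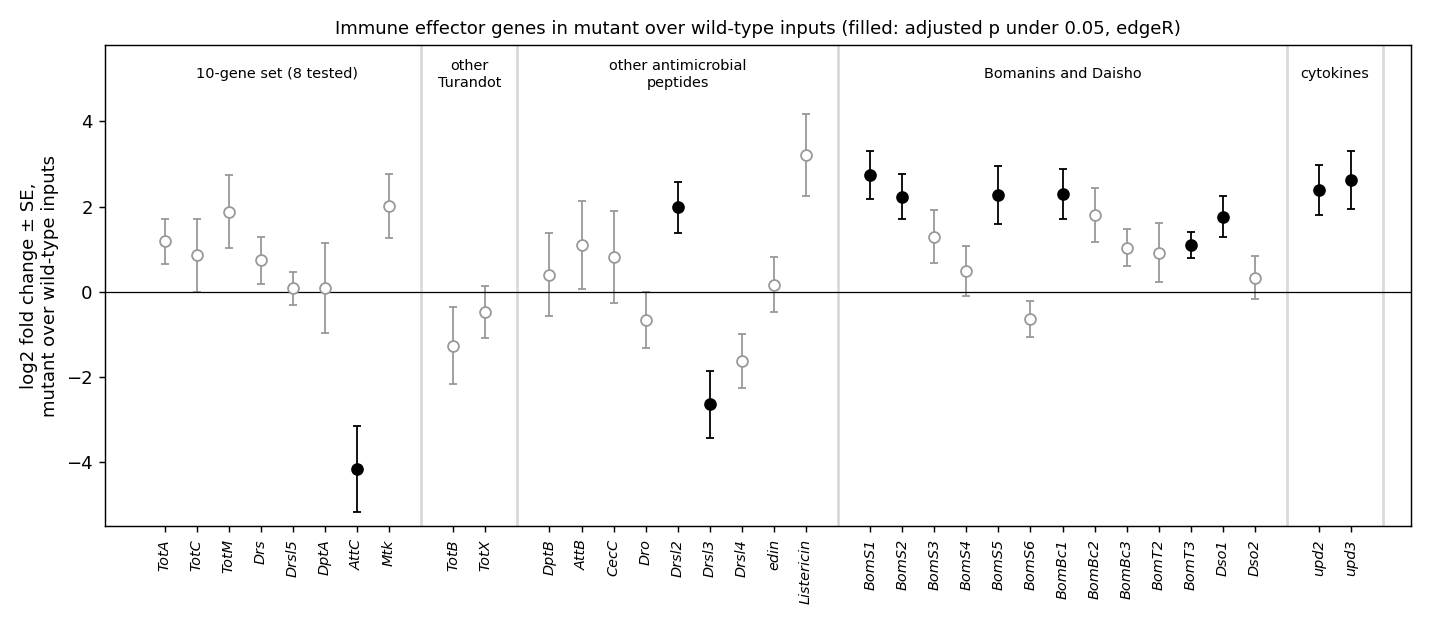
Log2 fold changes with SE in mutant over wild-type inputs for the 8 tested members, other Turandot and antimicrobial peptide genes, Bomanins and Daisho genes, and the cytokines upd2 and upd3; filled points passed an adjusted p of 0.05 by edgeR. AttC at −4.15 is the lowest point, and 6 of 13 Bomanins and Daisho genes are filled above 0.

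The genes whose profile over the 18 input and Fmr1 libraries was most like that of the 8 tested members were named by the Pearson correlation of deviations from group means, among 7908 genes. They were Dso1 (r = 0.912), Fer1HCH (0.908), Cyt-b5-r (0.907), CG14984 (0.885) and BomS6 (0.884). Dso1 encodes a Daisho peptide, BomS6 a Bomanin and Fer1HCH the heavy chain of secreted ferritin. These values are a description over libraries that share lysates.

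In the Fmr1 pull-downs most members were below input. Of 8 tested, 6 were lower and 0 higher in each genotype, namely TotA, TotC, TotM, Drs, Drsl5 and Mtk. In this comparison 46.5% of all genes were called in the mutant, 21.7% as higher and 24.8% as lower, and 48.8% in the wild type, 23.2% as higher and 25.6% as lower. The members' median log2 fold change was −2.57 in the mutant, against −0.10 over all genes, and −2.39 in the wild type, against −0.04 over all genes. DptA and AttC had negative values in both genotypes that did not pass.

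Drs gave the tightest ratio of Fmr1 library to input. Its Fmr1 libraries had 4.62, 2.80, 2.97 and 14.2 CPM in the mutant and 2.35, 3.77, 6.99, 4.34 and 5.59 CPM in the wild type. Set against the input of the same number, these were 20.2, 17.6, 18 and 14.6% in the mutant and 19.8, 19.8, 22.2, 19.9 and 19.2% in the wild type. Mutant replicate 7, with the highest Drs level in both kinds of library, gave the lowest of these percentages. Drs thus came to a log2 fold change of −2.63 ± 0.62 in the mutant (edgeR adjusted p = 0.00133) and −2.32 ± 0.56 in the wild type (0.00132). Without input replicate 7 the mutant value was −1.53 (0.0185), and without Fmr1 replicate 7 it was −3.40 (0.000203), over all alternatives 1.64e-09 to 0.0247.

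TotA, TotC and TotM were lower in both genotypes. TotA had 5.54, 4.23, 1.76 and 13.0 CPM in mutant Fmr1 libraries, or 26.3, 11.2, 5.62 and 20.4% of the same-numbered input. In the wild type it had 7.18, 3.52, 1.03, 5.1 and 3.49 CPM, or 38.8, 10.1, 22.9, 52.8 and 21.1% of input. Every Fmr1 library lay below its own input. TotA came to −2.63 ± 0.58 in the mutant (edgeR adjusted p = 0.00073) and −2.03 ± 0.52 in the wild type (0.00242). TotC had −2.68 ± 0.98 in the mutant (edgeR adjusted p = 0.0280) and −3.09 ± 0.97 in the wild type (0.0103), and TotM −2.52 ± 0.93 (0.0290) and −2.36 ± 0.93 (0.0393). The calls of TotC and TotM were lost under several single libraries left out. In the mutant both were lost without Fmr1 replicate 1, 2 or 3 or input replicate 7, the values moving to −1.99 for TotC (0.118) and −1.66 for TotM (0.158) without that input, and to −4.16 (0.00454) and −3.89 (0.00372) without Fmr1 replicate 7. In the wild type TotC lost its call without input replicate 2 (−2.43, 0.0592). TotM lost it there without input replicate 1 or 2 or Fmr1 replicate 1, 3, 5 or 7, with the value moving to −1.25 (0.329) without input replicate 2. Over all alternatives in the wild type TotM passed in 8 of 18 and TotC in 16 of 18. In the mutant each passed in 10 of 16.

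Mtk and Drsl5 were lower as well. Mtk had 1.93, 0.197, 0 and 3.49 CPM in mutant Fmr1 libraries and 0.213, 0.0992, 0.343, 0.552 and 0.978 CPM in wild-type Fmr1 libraries. Its log2 fold change over input was −3.35 ± 0.86 in the mutant (edgeR adjusted p = 0.00281) and −3.08 ± 0.88 in the wild type (0.00537), the most negative of the members in the mutant. Without input replicate 7 the mutant value was −2.53 (0.0189) and without Fmr1 replicate 7 it was −4.40 (0.000926), over all alternatives 2.62e-07 to 0.0189. Drsl5 had 1.85, 1.14, 0.550 and 2.89 CPM in mutant Fmr1 libraries and 1.03, 0.794, 1.58, 2.55 and 0.908 CPM in wild-type Fmr1 libraries. It came to −2.25 ± 0.43 in the mutant (edgeR adjusted p = 0.000134) and −2.44 ± 0.40 in the wild type (1.33e-05). TotA, Drs, Drsl5 and Mtk passed in all 16 alternatives in the mutant and all 18 in the wild type.

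DptA and AttC did not pass against input in either genotype in the 6-group model. DptA had −1.99 ± 1.20 in the mutant (edgeR adjusted p = 0.182) and −2.43 ± 1.11 in the wild type (0.0743). AttC had −0.78 ± 1.28 in the mutant (edgeR adjusted p = 0.648) and −1.55 ± 0.76 in the wild type (0.0970). Single libraries moved these values. Without wild-type Fmr1 replicate 3 both passed in the wild type, DptA at −3.58 (0.0263) and AttC at −2.19 (0.034), and without wild-type input replicate 3 they were at −1.20 (0.416) and −0.50 (0.621). In the mutant, without input replicate 7, DptA was at −0.64 (0.706) and AttC at 0.73 (0.728). Over all alternatives the adjusted p in the mutant ran from 0.000116 to 0.706 for DptA and 0.399 to 0.995 for AttC, and in the wild type from 4.05e-05 to 0.416 and 0.00339 to 0.621. In mutant Fmr1 libraries AttC had 0.168, 0.138, 0.110 and 0.526 CPM, from 2, 7, 1 and 8 counts, against 0.498, 2.83, 5.82, 0.552 and 2.23 CPM in wild-type Fmr1 libraries. Same-numbered libraries deviated together in both genotypes between Fmr1 and input. With the lysate as a replicate block DptA passed in both (−2.18 in the mutant, edgeR adjusted p = 0.000116, and −2.36 in the wild type, 4.05e-05) and AttC in the wild type (−1.33, 0.00339), giving 7 and 8 called members. The shares of all genes called against input, given above, are from the model without this block.

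Most Bomanins and Daisho genes were also lower in the pull-downs. Of 13 Bomanins and Daisho genes 12 were lower against input and 0 higher in the mutant, and 11 were lower and 0 higher in the wild type. Their leading gene was Dso2 in both, at −3.87 ± 0.62 in the mutant (edgeR adjusted p = 2.84e-05) and −3.97 ± 0.56 in the wild type (4.15e-06). Without mutant replicate 7 the list had 12 lower and 1 higher, and without wild-type replicate 3 it had 10 lower and 0 higher. Of the 9 other antimicrobial peptide genes 4 were lower in the mutant and 3 in the wild type, among them Dro (Drosocin), at −2.54 ± 0.76 (edgeR adjusted p = 0.00827) and −3.05 ± 0.67 (0.000616). The JAK/STAT list had 4 higher and 0 lower of 9 in the mutant, and 5 higher and 0 lower in the wild type. Its receptor dome came to 0.83 ± 0.20 in the mutant (edgeR adjusted p = 0.00117) and 0.79 ± 0.18 in the wild type (0.000587). The kinase hop came to 1.07 ± 0.19 (6.83e-05) and 1.07 ± 0.17 (1.18e-05). Toll pathway genes had 3 higher and 5 lower of 18 in the mutant and 3 and 3 in the wild type, with the receptor Tl higher in both. Imd pathway genes had 3 higher and 4 lower of 17 in each genotype. TotB and TotX were lower in both.

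**Figure D4:**
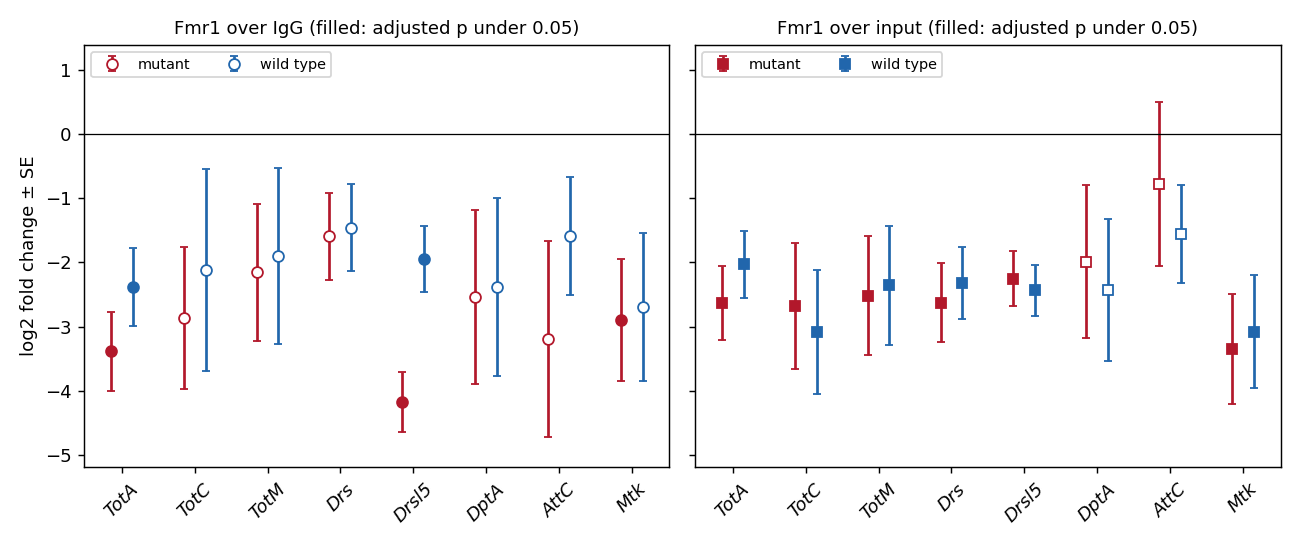
Log2 fold changes with SE of the 8 tested members in Fmr1 over IgG libraries (left) and Fmr1 over input (right), mutant in red left of wild type in blue; filled points passed an adjusted p of 0.05 by edgeR. All 32 points lie below 0, and the mutant Drsl5 point over IgG, at −4.18, is the lowest called one.

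Against IgG fewer members passed in the 6-group model, which has no block. With the lysate as a replicate block this did not hold in the mutant, as given below. In the mutant 3 of 8 were lower and 0 higher, where 20.4% of all genes were called, 10.8% as higher and 9.61% as lower. In the wild type 2 of 8 were lower and 0 higher, where 33.4% were called, 16.4% as higher and 17% as lower. Without mutant Fmr1 replicate 7 the mutant count was 6. The median of the members was −2.88 in the mutant and −2.03 in the wild type, against 0.00 and −0.03 over all genes. These comparisons use the same Fmr1 libraries as those against input and are not independent of them.

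TotA passed in both genotypes. Its IgG libraries had 22.8, 51.6, 67.4 and 96.7 CPM in the mutant and 33.6, 32.5, 11.6, 26.0 and 18.8 CPM in the wild type. All Fmr1 libraries, at 13.0 CPM or less in the mutant and 7.18 CPM or less in the wild type, stood below all IgG libraries of their genotype. This came to −3.39 ± 0.62 in the mutant (edgeR adjusted p = 0.000469) and −2.38 ± 0.61 in the wild type (0.00381). Drsl5 passed in both as well, at −4.18 ± 0.47 (edgeR adjusted p = 1.44e-06) and −1.94 ± 0.52 (0.00443). In the wild type each passed in 17 of 18 alternatives. TotA lost its call in replicates 2 and 3 alone (−2.85, 0.233), over all alternatives 4.14e-06 to 0.233, and Drsl5 in replicates 1, 5 and 7 alone (−1.88, 0.0509), over all alternatives 0.000125 to 0.0509. Mtk passed in the mutant alone, at −2.90 ± 0.96 (edgeR adjusted p = 0.0339), beside −2.70 ± 1.15 in the wild type (0.0738). Its mutant call was lost without Fmr1 replicate 2 (−2.43, 0.0885) or 3 (−2.56, 0.0772), without IgG replicate 1 (−2.78, 0.0549), and without IgG replicate 7 (−1.24, 0.687). Without Fmr1 replicate 7 TotA was at −4.06 (0.000199) and Mtk at −4.01 (0.0094), and over all alternatives the adjusted p ran from 6.63e-08 to 0.0391 for TotA and from 0.00555 to 0.687 for Mtk.

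The other 5 members did not pass against IgG in the 6-group model. Drs had −1.59 ± 0.68 in the mutant (edgeR adjusted p = 0.101) and −1.46 ± 0.68 in the wild type (0.104). TotC had −2.87 ± 1.11 (edgeR adjusted p = 0.0684) and −2.12 ± 1.58 (0.325), with no count in 2 mutant and 2 wild-type IgG libraries. TotM had −2.15 ± 1.07 (0.162) and −1.90 ± 1.37 (0.310), DptA −2.54 ± 1.36 (0.199) and −2.38 ± 1.39 (0.201), and AttC −3.19 ± 1.53 (0.147) and −1.59 ± 0.92 (0.197). Same-numbered Fmr1 and IgG libraries of the mutant deviated together, and with the lysate as a replicate block 8 of 8 members were lower in the mutant, from −1.24 for Drs (adjusted p = 0.00237) to −4.12 for Drsl5 (1.55e-08). The highest of the 8 adjusted p was that of TotC, at 0.0409. The shares of all genes called against IgG, given above, are from the model without this block.

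IgG libraries held Drsl5 at different levels in the genotypes. Drsl5 had 6.53, 25.8, 33.3 and 39.5 CPM in mutant IgG libraries, against 9.61, 5.00, 4.51, 6.50 and 4.53 CPM in wild-type IgG libraries. Mutant replicate 1, with 2 counts, lay in the wild-type range and the other 3 above it. The wild-type levels rest on 2 to 28 counts a library and are coarse as well. It was the 1 member of 8 called there, where 4.27% of all genes were called, 2.09% as higher and 2.18% as lower, at 2.50 ± 0.51 (edgeR adjusted p = 0.00460). The call was lost in replicates 1, 5 and 7 alone (2.47, 0.0630), and held in the 17 other alternatives. TotA had 1.59 ± 0.63 and did not pass (edgeR adjusted p = 0.150).

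Against their own inputs, mutant IgG libraries held 134, 371, 423 and 351% of the Drsl5 level, and wild-type IgG libraries 140, 159, 81.4, 50.6 and 54.8%. The wild-type percentages rest on the same 2 to 28 IgG counts a library. Drsl5 was the 1 member of 8 called in the mutant (1.93 ± 0.43, edgeR adjusted p = 0.00433), where 11.2% of all genes were called, 5.46% as higher and 5.77% as lower. With the lysate as a replicate block 2 members were called there, Drsl5 higher (1.84, 0.000383) and Drs lower. The shares just given are from the model without this block. In the wild type 0 of 8 passed, where 29.3% of all genes were called, 14.7% as higher and 14.6% as lower, with 0 at an unadjusted p under 0.05 and 0 by DESeq2. Drsl5 had −0.49 ± 0.49 there (edgeR adjusted p = 0.487). Drs was held at 42.7, 40.5, 42.4 and 37.6% of input in mutant IgG libraries and 80.9, 65.6, 71.7, 59.5 and 20.6% in wild-type IgG libraries.

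Fat body markers were also higher in IgG libraries. Of 13 markers 9 were higher and 0 lower in IgG over input in the mutant, and 8 higher and 0 lower in the wild type. Their summed level was 2780, 7030, 9330 and 11800 CPM in mutant IgG libraries and 5170, 3570, 2500, 3450 and 2970 CPM in wild-type IgG libraries. In both genotypes 8 of the 13 were lower in Fmr1 than in IgG libraries. The part of fat body RNA in the Drsl5 result was not tested.

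**Figure D5:**
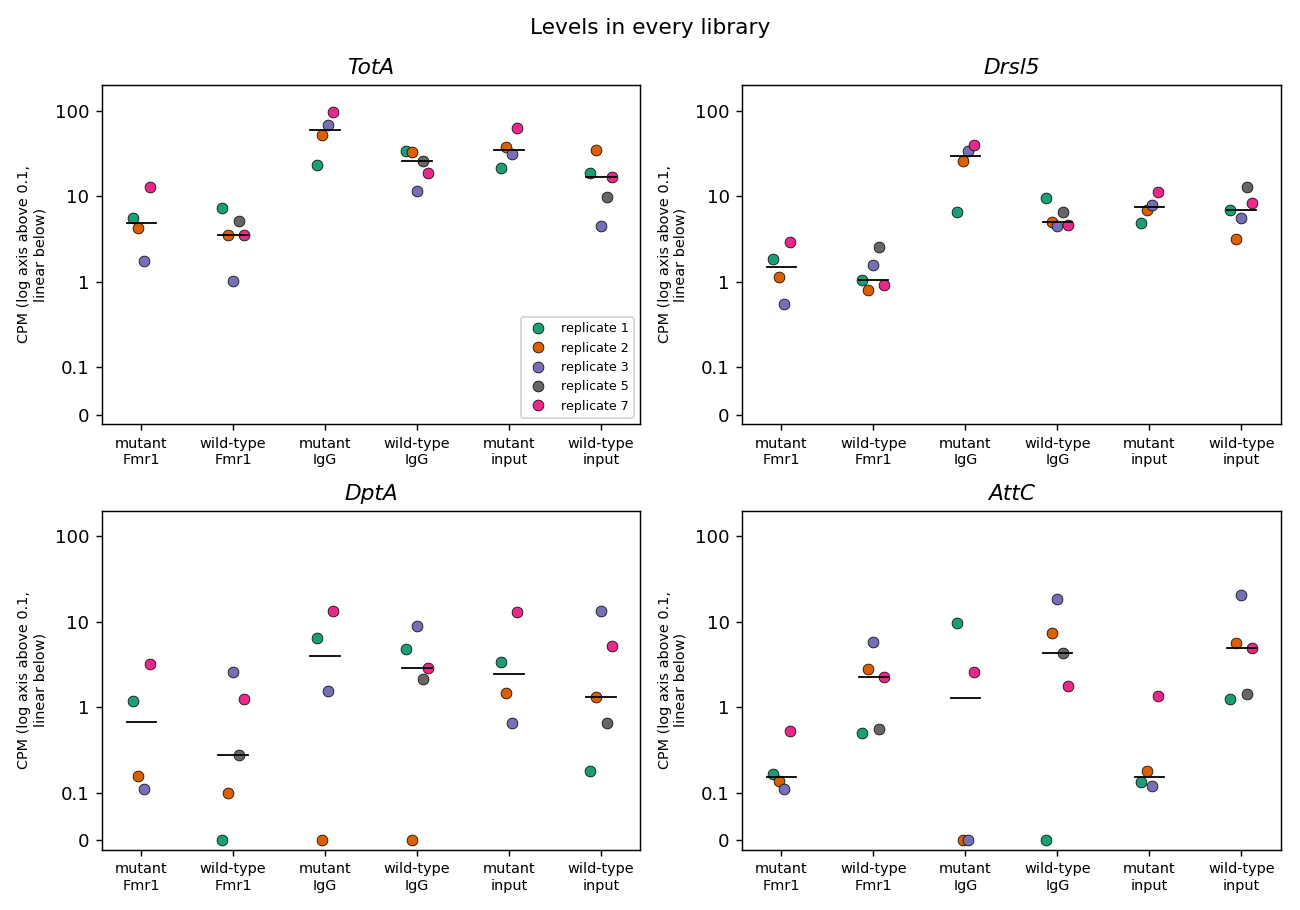
TMM-scaled CPM of TotA, Drsl5, DptA and AttC in every library of the 6 groups, with replicate numbers by colour and medians as bars, on an axis that is logarithmic above 0.1 CPM and linear below. The Fmr1 libraries of TotA and Drsl5 have the lowest median in each genotype, though for TotA in the wild type they overlap the inputs. Drsl5 is high in 3 of 4 mutant IgG libraries, and AttC is low in mutant Fmr1 libraries and inputs.

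By mean level TotA ran from mutant IgG (59.6 CPM) through mutant input (38.4), wild-type IgG (24.5), wild-type input (16.8) and mutant Fmr1 (6.12) to wild-type Fmr1 libraries (4.07 CPM). Each neighbouring pair in this order had overlapping ranges. Drsl5 ran from mutant IgG (26.3 CPM) through mutant input (7.74), wild-type input (7.33), wild-type IgG (6.03) and mutant Fmr1 (1.61) to wild-type Fmr1 libraries (1.37 CPM). There the wild-type IgG libraries (4.51 to 9.61 CPM) and the mutant Fmr1 libraries (0.550 to 2.89 CPM) did not overlap, and the other neighbours did.

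Whether loss of Ythdf altered the pull-down of these mRNAs was asked through the difference of the 2 genotypes' ratios. For Fmr1 over IgG 0 of 8 members passed by edgeR, as did 0% of all genes, and DESeq2 called 0 members. At an unadjusted p under 0.05 by edgeR there were 504 of 11469 genes, 1 of them a member. That member was Drsl5, whose ratio was lower in the mutant by a log2 difference of −2.24 ± 0.67 (edgeR adjusted p = 0.807). TotA had −1.01 ± 0.83 (adjusted p = 1). For Fmr1 over input 0 of 8 passed by edgeR, where 0.00872% of all genes were called, with 0 at an unadjusted p under 0.05 and 0 by DESeq2. The median difference over the members was −0.50 against IgG and 0.01 against input.

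Between genotypes in Fmr1 libraries AttC again had the most negative value. By edgeR 0 of 8 members passed there, where 5.52% of all genes were called, 2.99% as higher and 2.53% as lower. At an unadjusted p under 0.05 there was 1 member, beside 1971 of all 11469 genes. DESeq2 called 1 member, beside 511 of all genes as higher and 414 as lower. AttC had −3.38 ± 1.07 (edgeR adjusted p = 0.0642), and passed without wild-type Fmr1 replicate 1 (−3.66, 0.0494). Same-numbered Fmr1 libraries of the 2 genotypes deviated together, and with the number as a replicate block AttC passed at −3.39 (adjusted p = 0.012, over all alternatives 0.0113 to 0.574). The lysates are those of the inputs, so this is not a separate observation.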

How the data were processed

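The deposited table held whole-number counts per gene for 27 libraries. Per the submitters' processing notes, reads were handled with bcl2fastq 2.20, Trim Galore and STAR, and per the labels' protocols the libraries were strand-specific and depleted of rRNA, with a molecular identifier as second read. The genome build, the counting tool, its strand setting and any use of the identifiers are not given in the sources used here. The 5 special rows, with 23.79% to 74.68% of a library's reads, were left out. Positions and symbols came from the Ensembl 115 annotation of BDGP6.54, which held 17710 of the 17807 identifiers, and the files' own build may differ.

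With filterByExpr (minimum count 10, total 15) 11469 genes were kept. They were scaled with TMM and fitted in 1 robust quasi-likelihood model with 6 groups (edgeR 4.0.16, R 4.3.3), checked on simulated data. P-values of 11 comparisons were adjusted with Benjamini-Hochberg over all genes. DESeq2 1.42.0, RLE scaling, a minimum count of 1, fits of only the groups compared, replicate subsets, a replicate block and libraries left out were alternatives. The pairs of libraries held 0 identical ones. Each SE was derived from the log2 fold change and F statistic of the fit of all 27 libraries. That fit has no block and treats libraries of the same lysate as independent. The submitters call the lysates biological replicates.

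Whether same-numbered libraries belong together was checked by the correlation of their deviations from group means, which had to exceed 0.1 in every pair. It did for mutant Fmr1 and input (0.138 to 0.495), mutant IgG and input (0.14 to 0.268), mutant Fmr1 and IgG (0.181 to 0.318) and wild-type Fmr1 and input (0.175 to 0.473). It also did for pairs from different lysates, namely the Fmr1 libraries of both genotypes (0.311 to 0.639) and wild-type Fmr1 and mutant IgG (0.145 to 0.161). The check therefore cannot show by itself that libraries share a lysate. The protocol divides 1 lysate into input and pull-downs. The members and lists were chosen with earlier results of these data known. Named were all members, up to 3 called genes per list and direction by smallest p, and the 5 genes most like the members. A gene outside this, BomS6 without mutant replicate 7, was named after its value was seen.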

Additional observations from a re-analysis of the deposited data

Results flagged for a closer look

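Of 60 sets of a member in a group, 14 held a library that stood apart by Dixon's criterion. Its nominal rate of about 1 set in 20 is for normally distributed values, which CPM with zeros need not follow. Sets with counts in 1 library alone are flagged by their form, as AttA in wild-type IgG and CecA1 in mutant Fmr1 libraries. Members that vary together are also not independent. In 7 of these sets the library was one of mutant replicate 7: Drs at 97.4 CPM in the input, 14.2 CPM in the Fmr1 library and 36.6 CPM in the IgG library, AttC at 1.34 CPM in the input and 0.526 CPM in the Fmr1 library, and TotC at 1.84 CPM and TotM at 5.00 CPM in the Fmr1 library. Wild-type replicate 3 stood apart in its input with AttC at 20.7 CPM, AttA at 0.791 CPM and CecA1 at 1.49 CPM. It also did in its IgG library with CecA1 at 0.644 CPM, which is 1 count. The other 3 rest on 4 counts or fewer as well: TotC at 10.0 CPM in wild-type IgG replicate 2, AttA at 0.324 CPM in wild-type IgG replicate 7 and CecA1 at 0.0840 CPM in mutant Fmr1 replicate 1.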

How the results depend on the processing

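Of 862 values of single members under alternatives, 768 kept their direction and their side of the threshold, 40 lost the call, 33 gained it and 21 changed sign. Counts of called members moved as follows. With the replicate block the counts were 8 for Fmr1 over IgG in the mutant, 6 in the wild type, 2 for IgG over input in the mutant, 1 in the wild type (where, as for Fmr1 over IgG in the wild type, the numbers did not pair the libraries) and 1 between genotypes in Fmr1 libraries. The block changed no other call count by over 1.5 times. The shares of all genes called with the block are not given here. DESeq2 gave 1 between genotypes in Fmr1 libraries and 4 for Fmr1 over IgG in the wild type. Fits of only the groups compared gave 2 between genotypes in IgG libraries and 4 for Fmr1 over IgG in the wild type. Replicates 2 and 3 alone gave 1 between genotypes in Fmr1 libraries and 2 for IgG over input in the mutant. Replicates 1, 5 and 7 alone gave 1 between genotypes in inputs, which was Mtk and not AttC. They gave 0 between genotypes in IgG libraries and 0 for IgG over input in the mutant. The causes were not tested. With single libraries left out the counts ran from 0 to 1 in inputs and in Fmr1 libraries between genotypes, 2 to 6 and 2 to 3 for Fmr1 over IgG in mutant and wild type, and 4 to 6 and 4 to 7 for Fmr1 over input. They stayed at 1 between genotypes in IgG libraries and for IgG over input in the mutant, at 0 for that in the wild type and at 0 for both differences.

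None of the values that changed sign was called. Between genotypes in inputs these were Drs (−0.66) and DptA (−2.78) in replicates 2 and 3 alone, Drsl5 in replicates 1, 5 and 7 alone (−0.25), Drs (−0.33), Drsl5 (−0.19) and DptA (−1.22) without mutant replicate 7, and Drsl5 without wild-type replicate 3 (−0.0079). The leave-one-out values ran from −0.37 to 0.95 for Drs, −0.22 to 0.38 for Drsl5 and −1.26 to 1.28 for DptA. TotC over IgG came to 1.29 in the wild type in replicates 1, 5 and 7 alone, and its leave-one-out values in the mutant ran from −4.43 to 0.25. AttC over input in the mutant came to 0.020 without mutant replicate 7, with leave-one-out values from −1.40 to 0.73. In replicates 2 and 3 alone IgG over input in the wild type came to −0.24 for TotA and 0.11 for Drsl5. The 2 alternatives that leave out all 3 libraries of a lysate were chosen after seeing the data. TotC and AttC in mutant IgG libraries of replicates 2 and 3 had no counts and gave no fold change there.

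RLE scaling moved the median of all genes by −0.15 and −0.22 for Fmr1 over IgG in mutant and wild type and by 0.13 for IgG over input in the wild type, and no reported call of a member changed. Depth limits the IgG libraries most, where the members rest on as few as 0 to 7 counts a library, and AttC in mutant inputs on 2 to 14.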
